A study of Mus musculus with 4 samples.

Results

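Endocannabinoids are lipid messengers made on demand from membrane phospholipids. Anandamide is released from N-acyl phosphatidylethanolamine by NAPE-PLD (Napepld) and broken down by fatty acid amide hydrolase (Faah), while 2-arachidonoylglycerol (2-AG) is made by diacylglycerol lipases (Daglb) and hydrolysed mainly by monoglyceride lipase (Mgll), with Abhd6 and Abhd12 taking smaller parts. Both lipids act on CB1 (Cnr1), the abundant cannabinoid receptor of brain, and on CB2 (Cnr2), the receptor of immune cells, which couples to inhibitory G proteins; Gpr18 and Gpr55 encode receptors for related lipids. These 10 genes, chosen by name from the 54532 gene rows of the count table, were followed in T helper 2 (Th2) cells, the CD4+ T cells that make type 2 cytokines. All 10 were found once each.

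RNA was sequenced in 2 libraries of cells given HU-308, a synthetic agonist selective for CB2, and in 2 libraries of cells given DMSO, the solvent control. Both groups are wild-type mouse cells from the bleomycin model of systemic sclerosis, polarised to Th2 from naive CD4+ cells, restimulated with anti-CD3 and anti-CD28 beads on day 4 and collected 12 h later; mouse strain, sex, age and HU-308 dose are not given in the sources used here. No group lacked Cnr2 or received a CB2 blocker, so effects of HU-308 through CB2 and through other targets cannot be told apart. Libraries held 16145298 to 20479254 counts. All 7 T cell markers were detected, with summed FPKM (the table's read level scaled for gene length and library size) of 713.4 and 840.1 in HU-308 libraries, against 821.3 and 1048.5 in DMSO libraries. The highest of them, the IL-4 receptor gene Il4ra, had 210.8 and 294.1 FPKM with HU-308, against 382.7 and 528.1 FPKM with DMSO (log2 fold change −0.84 ± 0.25; edgeR adjusted p = 0.171, DESeq2 adjusted p = 0.0149). The other 6 markers summed to 502.6 and 546.0 FPKM with HU-308, against 438.5 and 520.4 FPKM with DMSO. Within that sum Gata3 was lower, at 96.3 and 74.8 FPKM with HU-308, against 123.2 and 121.7 FPKM with DMSO. Its log2 fold change was −0.51 ± 0.16 (edgeR adjusted p = 0.192, DESeq2 adjusted p = 0.161), while 5 of all 7 markers had a positive one. Since no source states whether the libraries of a group are separate mice or cultures, each p-value reflects library-to-library spread alone, and that spread may be technical.

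The receptor CB2 and the anandamide hydrolase FAAH had the highest transcript levels relative to DMSO among the 10 genes, and the groups overlapped for the 2-AG hydrolases. Faah was 2.16-fold and Cnr2 1.84-fold higher with HU-308, Gpr55 was 2.75-fold lower with wide scatter, and the other tested members lay between 0.978-fold and 1.14-fold. None of these differences passed the test across all genes. With the threshold at 0.05 after Benjamini-Hochberg adjustment over 14316 genes, the quasi-likelihood test of edgeR called 0 of the 9 tested members, 0 higher and 0 lower, against 0.314% of all tested genes (0.0838% higher and 0.231% lower). At an unadjusted p under 0.05 the count was 2 of 9 members (Faah and Cnr2), both higher, where 18.8% of all tested genes lay, 8.79% on the higher side. DESeq2 called these 2 of 9 members, both higher, against 6.01% of the 12188 genes to which it gave an adjusted p (2.02% higher). The authors' deposited table lists both as higher, as it does 1.06% of its 23290 genes with an adjusted p. Each called 246 genes higher, so the shares on the higher side differ only by their totals. limma-voom, limma on FPKM and the adjusted-deviance form of edgeR called 0 members. Over all tested genes they called 51, 0 and 55 in turn, so with limma on FPKM no gene at all passed. The libraries of the groups did not overlap for 2 of 9 members, 2 higher and 0 lower, against 51.3% of all tested genes (25.9% higher and 25.4% lower). A difference of at least 2-fold was seen in 2 of 9 members (Faah and Gpr55), against 8.17% of all tested genes. The median log2 fold change was 0.18 over the 9 members and 0.02 over all tested genes. In RNA from whole cultures, a change in the number of cells that hold a transcript and a change in RNA per cell cannot be told apart.

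**Figure D1:**
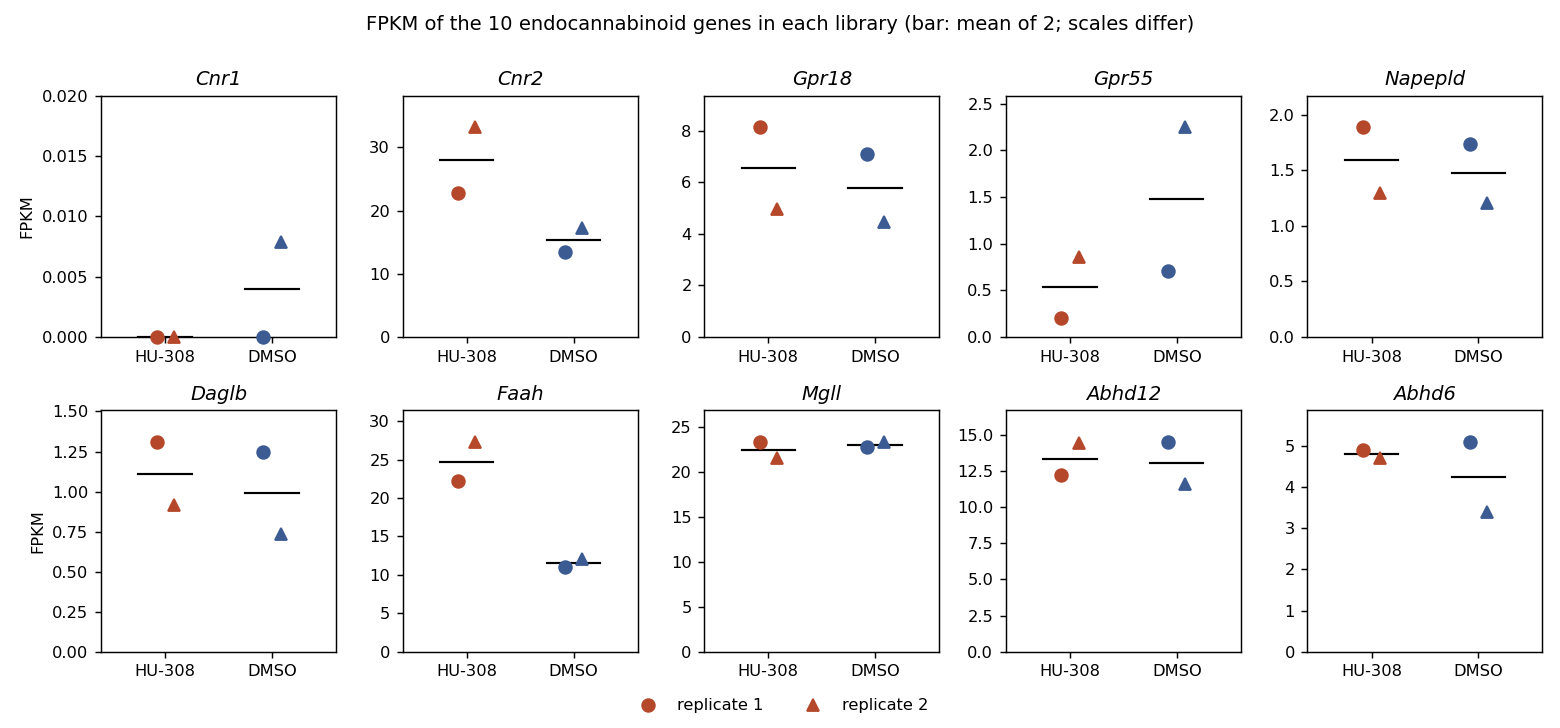
Deposited FPKM of each of the 10 genes in each of the 4 libraries, HU-308 left of DMSO, with a bar at the mean of each pair and a separate scale for each gene. Both HU-308 libraries lie above both DMSO libraries for Cnr2 (22.8 and 33.2 against 13.4 and 17.3) and Faah (22.2 and 27.3 against 11.0 and 12.1), and the groups overlap or are near 0 for the rest.

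Among receptors, Cnr2 was the most abundant. Cnr2 (ENSMUSG00000062585; GRCm38 chromosome 4, 135895394 to 135920207, plus strand) had 22.8 and 33.2 FPKM in HU-308 libraries, against 13.4 and 17.3 FPKM in DMSO libraries. Both HU-308 libraries were above both DMSO libraries, a separation shared by 25.9% of all tested genes. The underlying reads were 1533 and 2271 with HU-308 and 927 and 1359 with DMSO, so the value is not limited by depth. The log2 fold change was 0.88 ± 0.24 (SE, 95% interval 0.29 to 1.46; edgeR adjusted p = 0.152). DESeq2 gave 0.87 ± 0.26 with an adjusted p of 0.0206, and the authors' deposited table gives 0.87 with an adjusted p of 0.021. Of all tested genes, 5.68% had a log2 fold change at least as high as that of Cnr2.

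RefSeq gives Cnr2 a pair of transcription starts, and the bases just before each, printed because Cnr2 encodes the receptor that HU-308 targets, read 5′ to 3′ as follows (GRCm38.p6, plus strand, chr4:135894939-135895188 for the upstream start and chr4:135911430-135911679 for the downstream start).
Cnr2, upstream start: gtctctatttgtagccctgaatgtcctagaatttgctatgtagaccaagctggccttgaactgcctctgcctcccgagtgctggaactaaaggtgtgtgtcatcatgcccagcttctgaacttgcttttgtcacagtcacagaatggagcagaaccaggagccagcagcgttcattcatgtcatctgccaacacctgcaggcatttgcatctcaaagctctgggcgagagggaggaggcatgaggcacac
Cnr2, downstream start: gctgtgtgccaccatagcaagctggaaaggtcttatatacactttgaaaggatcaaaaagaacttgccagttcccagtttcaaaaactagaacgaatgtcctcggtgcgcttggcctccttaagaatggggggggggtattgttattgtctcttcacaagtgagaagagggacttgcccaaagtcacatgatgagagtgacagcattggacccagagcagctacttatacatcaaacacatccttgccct
Both stretches are poor in CpG, with 3 CpG each, where the median over 32851 RefSeq promoters of the same length is 6. Neither held a match on either strand to the motifs searched. These were the STAT6 motif, the motif of other STAT factors (TTCNNNGAA), a pair of GATA factor motifs (AGATAA, and with another first base TGATAA), an AP-1 motif (TGANTCA), the E-box (CACGTG) and a FOXO motif (GTAAACA), each of which 3.17% to 9.99% of all promoters hold. Capitals mark such matches in the sequences printed for other genes.

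Cnr1, the other cannabinoid receptor gene, was almost silent. It had 0 reads in both HU-308 libraries, and 0 reads and 1 read in the DMSO libraries. A count of 0 allows up to 0.186 and 0.184 CPM (library-size-scaled read counts) in the HU-308 libraries and 0.166 in DMSO replicate 1 (3 reads of the library total, counting error only). Cnr1 was therefore not tested, and no difference was detectable at this depth. RefSeq gives Cnr1 3 starts. The stretch before the first holds 79.2% G and C and 36 CpG, and that before the second 71.9% and 24 CpG in 199 bases. For the third, the window ended at an annotated exon, which left the 72 bases farthest from the start. They hold 54.2% G and C and 2 CpG. Their GATA match (TTATCT, which is AGATAA on the opposite strand) begins 205 bases before the third start. The stretch before the first start is shown to set the near-silent receptor gene beside the expressed Cnr2 (GRCm38.p6, plus strand, chr4:33924014-33924263).
Cnr1: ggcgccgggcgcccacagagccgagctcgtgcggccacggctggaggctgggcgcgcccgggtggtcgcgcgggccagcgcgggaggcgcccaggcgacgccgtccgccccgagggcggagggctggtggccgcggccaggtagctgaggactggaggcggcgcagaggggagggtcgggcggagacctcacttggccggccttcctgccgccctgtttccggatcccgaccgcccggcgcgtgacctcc

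Gpr55, whose receptor responds to lysophosphatidylinositol, was the lowest of the 3 tested receptors. It had 0.207 and 0.862 FPKM in HU-308 libraries (13 and 55 reads), against 0.71 and 2.25 FPKM in DMSO libraries (46 and 165 reads). The groups overlapped, since HU-308 replicate 2 was above DMSO replicate 1, and replicate 2 was above replicate 1 in both groups, by 4.22-fold with HU-308 and 3.17-fold with DMSO. The log2 fold change of −1.46 ± 0.79 had an interval from −3.42 to 0.50 (edgeR adjusted p = 0.377; DESeq2 adjusted p = 0.215). It ranged from −2.84 without HU-308 replicate 2 to −0.40 without DMSO replicate 2. Gpr55 shares 1.91% of its exon bases with 4933407L21Rik on the opposite strand, a gene with at most 6 reads in any library. The bases before its start held a STAT-type match, TTCCAGGAA, the only one in the 8 members whose promoter bases were searched, shown in capitals and beginning 74 bases before the start; 7.02% of all promoters hold such a match (GRCm38.p6, minus strand, chr1:85961056-85961305).
Gpr55: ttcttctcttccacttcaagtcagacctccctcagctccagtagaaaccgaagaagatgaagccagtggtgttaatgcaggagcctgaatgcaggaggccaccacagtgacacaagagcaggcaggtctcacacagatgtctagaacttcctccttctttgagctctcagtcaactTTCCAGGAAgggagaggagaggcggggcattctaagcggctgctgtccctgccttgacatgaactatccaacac

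Gpr18, a receptor gene abundant in lymphoid cells, had 8.14 and 4.98 FPKM in HU-308 libraries, against 7.09 and 4.45 FPKM in DMSO libraries. Replicate 1 was the higher library in both groups and the groups overlapped. The log2 fold change was 0.19 ± 0.35, with an interval from −0.67 to 1.05 (edgeR adjusted p = 0.80), and turned to −0.19 when HU-308 replicate 1 was left out and to −0.10 when DMSO replicate 2 was. Of the summed FPKM of the 4 receptors, Cnr2 made up 73.2% and 85.1% in HU-308 libraries, against 63.1% and 72.1% in DMSO libraries. Both HU-308 shares were above both DMSO shares, though 73.2% lay close to 72.1%. These shares are built from the Cnr2 levels, which were themselves separated, as were 25.9% of all tested genes on the higher side.

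Among enzymes, Faah showed the largest difference relative to its spread. Faah (ENSMUSG00000034171; chromosome 4, 115967145 to 116017926, minus strand), which hydrolyses anandamide and other fatty acid amides, had 22.2 and 27.3 FPKM in HU-308 libraries, against 11.0 and 12.1 FPKM in DMSO libraries. The HU-308 libraries held 2932 and 3665 reads, the DMSO libraries 1496 and 1862. Every pairing of an HU-308 library with a DMSO library gave a ratio of normalised counts (CPM) between 1.83 and 2.52. The log2 fold change was 1.11 ± 0.16, with an interval from 0.71 to 1.51. It narrowly missed the threshold in edgeR (adjusted p = 0.0679), while DESeq2 gave an adjusted p of 5.92e-05 and the authors' deposited table lists 6.05e-05. The log2 fold change moved to 1.26 and 0.94 when HU-308 replicates 1 and 2 were dropped in turn. Dropping DMSO replicates 1 and 2 in turn gave 1.02 and 1.18. Such fits take their spread from 1 group alone, so they cannot settle whether the near miss would hold. Of all tested genes, 3.34% had a log2 fold change at least as high as the 1.11 of Faah with all libraries.

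The sequence before the Faah start is printed as that of the member with the smallest p (GRCm38.p6, minus strand, chr4:116017927-116018174). It carries TGATAA in capitals, beginning 135 bases before the RefSeq start, letters that 7.94% of all promoters hold on either strand, and 9 CpG.
Faah: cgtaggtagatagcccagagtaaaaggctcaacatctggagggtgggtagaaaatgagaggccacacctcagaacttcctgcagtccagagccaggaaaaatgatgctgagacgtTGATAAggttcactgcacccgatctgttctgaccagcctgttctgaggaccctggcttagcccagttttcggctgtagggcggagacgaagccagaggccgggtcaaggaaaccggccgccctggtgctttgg

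Mgll, the main hydrolase of 2-AG, had almost the same level in every library. It stood at 23.3 and 21.5 FPKM with HU-308, against 22.7 and 23.3 FPKM with DMSO (log2 fold change −0.03 ± 0.13, interval −0.35 to 0.28; edgeR adjusted p = 0.917), and its small difference turned to 0.09 when libraries were scaled by size only and to 0.01 without HU-308 replicate 2. The ratio of Faah to Mgll within a library does not depend on how libraries are scaled. That ratio of FPKM was 0.952 and 1.27 with HU-308, against 0.482 and 0.519 with DMSO, so the groups did not overlap. The ratio of Cnr2 to Mgll was 0.979 and 1.55 with HU-308, against 0.588 and 0.745 with DMSO. With Mgll nearly level, both ratios restate the differences of Faah and Cnr2 and are not separate support. By level, 25.9% of all tested genes had both HU-308 libraries above both DMSO libraries. The ratio of Faah to Cnr2 was 0.972 and 0.82 with HU-308, against 0.82 and 0.696 with DMSO, with HU-308 replicate 2 and DMSO replicate 1 level.

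Abhd12, a lipase that also cleaves lysophosphatidylserine, had 12.2 and 14.4 FPKM with HU-308, against 14.5 and 11.6 FPKM with DMSO (log2 fold change 0.03 ± 0.18, interval −0.42 to 0.49). Abhd6, a membrane lipase that also hydrolyses 2-AG, had 4.91 and 4.71 FPKM with HU-308, against 5.10 and 3.40 FPKM with DMSO (0.19 ± 0.26, interval −0.46 to 0.83). Neither was separated between groups, and when DMSO replicate 2 was left out the log2 fold change was −0.12 for Abhd12 and −0.08 for Abhd6; for Abhd12 it was −0.10 when HU-308 replicate 2 was. Mgll made up 57.6% and 53.0% of the summed FPKM of these 3 2-AG hydrolases with HU-308, against 53.7% and 60.8% with DMSO. The makeup of the 2-AG hydrolases therefore overlapped between groups.

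The biosynthetic enzymes were low. Napepld, the phospholipase D that releases anandamide, had 1.89 and 1.3 FPKM with HU-308, against 1.74 and 1.21 FPKM with DMSO (log2 fold change 0.12 ± 0.32, interval −0.68 to 0.91). Daglb, a diacylglycerol lipase prominent in immune cells, had 1.31 and 0.914 FPKM with HU-308, against 1.25 and 0.733 FPKM with DMSO (0.18 ± 0.33, interval −0.65 to 1.0). In both genes replicate 1 exceeded replicate 2 in each group, and the groups overlapped. Leaving out HU-308 replicate 1 turned the log2 fold changes to −0.17 for Napepld and −0.10 for Daglb, and leaving out DMSO replicate 2 turned them to −0.12 for Napepld and −0.16 for Daglb. The intervals of 4 tested members (Mgll, Abhd12, Abhd6 and Napepld) lay wholly within a doubling in either direction; for Gpr18, Daglb and Gpr55 a change of that size was not excluded by the interval. Daglb is less certain than the rest. Its annotated exons share 24.1% of their bases with Rac1 on the opposite strand, and Rac1 had 6467 to 8739 reads per library, against 138 to 212 for Daglb. Whether counting used strand is not given in the sources used here, so reads of the pair cannot be told apart.

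**Figure D2:**
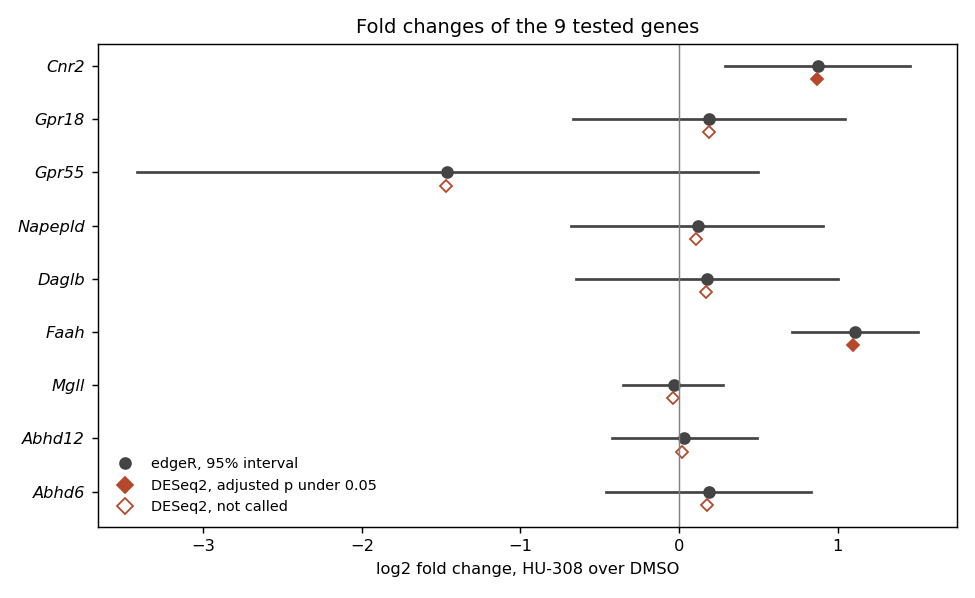
Log2 fold change of HU-308 over DMSO for the 9 tested genes, with edgeR estimates and their 95% intervals (circles and lines) and DESeq2 estimates (diamonds, filled where the adjusted p is under 0.05). The intervals of Cnr2 (0.29 to 1.46) and Faah (0.71 to 1.51) lie above 0, that of Gpr55 runs from −3.42 to 0.50, and the other intervals span 0.

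Ordered by FPKM in HU-308 libraries, Cnr2, Faah and Mgll led with means of 28.0, 24.7 and 22.4 and overlapping ranges, followed by Abhd12 (13.3), Gpr18 (6.56), Abhd6 (4.81), Napepld (1.59), Daglb (1.11), Gpr55 (0.534) and Cnr1. In DMSO libraries Mgll led alone with a mean of 23.0, above Cnr2 (15.4), Abhd12 (13.1) and Faah (11.5), of which neighbours overlapped. Over the 4 libraries Mgll stood at percentile 83.7 of the tested genes by mean FPKM, Cnr2 at 82.7, Faah at 79.2 and Gpr55 at 20.2. The order depends on the gene length used. The deposited length of Faah is 7834 bases, the union of exons of 8 transcripts, of which 1 is protein-coding and 3827 bases long. Rescaled to its coding transcript, Faah had 45.4 and 55.8 FPKM with HU-308, against 22.4 and 24.7 FPKM with DMSO. With every member rescaled to its longest coding transcript, Faah stood above every other member with HU-308. With DMSO it came next after Mgll, whose rescaled mean was 29.2. The rescaling credits all reads of a gene to that transcript.

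The 5 genes with the profile most like that of Cnr2 over the 4 libraries, among 10436 genes whose log2 CPM averaged 2 or more, were Wbp1, Neil1, Dyrk1b, Slc43a2 and Ulbp1, with a root-mean-square difference of centred log2 CPM of 0.031 to 0.054. For Faah they were Accs, Ubald1, Wdr45, Angptl2 and Palm, at 0.029 to 0.058. With 4 libraries, many genes share a profile, and the likeness is a description only.

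The wider endocannabinoid system was read from 8 lists of 67 genes beside the 10. Of these, 8 had no read in any library and 40 passed the filter on low counts. At an adjusted p under 0.05, edgeR called 0 of the 40, 0 higher and 0 lower in each list, against 0.314% of all tested genes. At an unadjusted p under 0.05 the count was 10, where 18.8% of all tested genes lay. At an adjusted p under 0.05, DESeq2 called 1, against 6.01% of the 12188 genes to which it gave an adjusted p. By limma-voom the count was 0, against 51 of all 14316 tested genes. The median log2 fold change of the 40 was 0.07. The gene called by DESeq2, and by the authors' deposited table, was Ptges3, a co-chaperone also described as a prostaglandin E synthase, at 42.5 and 41.5 FPKM with HU-308, against 74.9 and 62.3 FPKM with DMSO (log2 fold change −0.70 ± 0.15; edgeR adjusted p = 0.112, DESeq2 adjusted p = 0.0268).

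Of 14 other receptors for these lipids and their partners, 3 were tested. The cation channel gene Trpv2 had 27.7 and 37.5 FPKM with HU-308, against 28.8 and 41.1 FPKM with DMSO. Pparg, a nuclear receptor that fatty acid derivatives activate, had 24.6 and 27.4 FPKM with HU-308, against 36.7 and 38.6 FPKM with DMSO (log2 fold change −0.52 ± 0.14, edgeR adjusted p = 0.148). Both HU-308 libraries were below both DMSO libraries, as for 25.4% of all tested genes. Trpv1, a channel that anandamide opens, had no read in any library. Among 10 genes of other routes to anandamide, 6 were tested, with a median log2 fold change of 0.45. The phosphatase genes Inpp5d (−0.14 ± 0.26) and Ptpn22 (0.49 ± 0.13) were the most abundant. Abhd4, a lipase of an alternative route to anandamide that was named after its values were seen, had 9.57 and 9.37 FPKM with HU-308, against 6.22 and 5.13 FPKM with DMSO (0.75 ± 0.18; edgeR adjusted p = 0.128). Dagla, the other diacylglycerol lipase gene, stood at 0.155 and 0.101 FPKM with HU-308, against 0.17 and 0.177 FPKM with DMSO.

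Phospholipases C, which make the diacylglycerol from which 2-AG is formed, were led by Plcg1 (log2 fold change 0.34 ± 0.18) and Plcb2 (0.20 ± 0.17). The lysophosphatidylinositol genes Mboat7 and Ddhd1 had log2 fold changes of 0.02 ± 0.13 and −0.05 ± 0.14, and the carriers Scp2 and Fabp5 of 0.34 ± 0.16 and −0.21 ± 0.22. Among other hydrolases, the triglyceride lipase gene Pnpla2 had a log2 fold change of 0.18 ± 0.20 the hormone-sensitive lipase gene Lipe of 0.05 ± 0.26, and Naaa, an acid amidase for N-acylethanolamines, of 0.49 ± 0.25. Of the other prostaglandin E synthases, Ptges2 had a log2 fold change of −0.08 ± 0.31. Ptges rests on few reads, 10 and 23 with HU-308 against 6 and 6 with DMSO (1.57 ± 0.64, edgeR adjusted p = 0.269). Ptgs2, the cyclooxygenase that can oxidise 2-AG, had no read in any library. Of 14 genes for G protein subunits and the kinases and arrestins that act on receptors, 13 were tested, and levels ranged widely. Gnai2, an inhibitory G protein subunit, had 193.9 and 205.3 FPKM with HU-308, against 170.2 and 170.5 FPKM with DMSO (0.24 ± 0.13; edgeR adjusted p = 0.393), and Grk2, a kinase that desensitises receptors, had a log2 fold change of 0.09 ± 0.18.

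**Figure D3:**
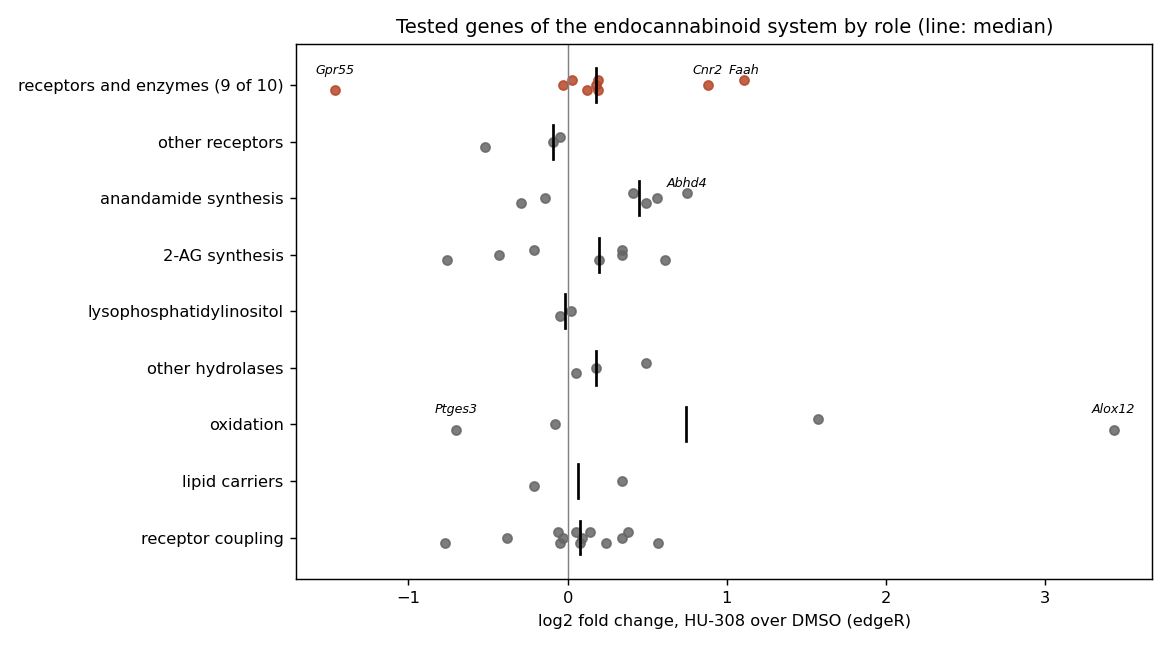
Log2 fold change of HU-308 over DMSO (edgeR) for each tested gene, by role, with a line at the median of each role. Faah (1.11) and Cnr2 (0.88) lie on the higher side and Gpr55 (−1.46) on the lower side, and the point farthest right is Alox12, which rests on 12 and 10 reads with HU-308 against 1 and 1 with DMSO.

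Markers of other cells were set beside Cnr2, since B cells and myeloid cells also express it. The 6 B cell markers summed to 44.7 and 35.9 FPKM in HU-308 libraries, against 21.4 and 18.9 FPKM in DMSO libraries. Ighm, an immunoglobulin heavy chain gene, made up most of that sum, with 41.1 and 31.5 FPKM in HU-308 libraries, against 19.3 and 15.4 FPKM in DMSO libraries. Its log2 fold change was 1.07 ± 0.20 (edgeR adjusted p = 0.092, DESeq2 adjusted p = 0.00135), close in size to those of Faah and Cnr2. The other 5 B cell markers summed to 3.59 and 4.44 FPKM with HU-308, against 2.09 and 3.42 FPKM with DMSO. Ms4a1, a defining B cell marker, was at 0.0383 and 0.0754 FPKM with HU-308, against 0.0186 and 0.0411 FPKM with DMSO, and 4 of the 5 tested B cell markers had a positive log2 fold change. The 6 myeloid markers summed to 27.9 and 38.5 FPKM with HU-308, against 32.8 and 49.9 FPKM with DMSO, mostly Fcgr3 and Adgre1, with Lyz2 at 0 reads in every library. Sums for CD8 and NK cells (led by Cd8b1, with Klrb1c at 0), for mast cells, basophils and eosinophils (led by Cpa3, with Fcer1a and Mcpt8 at 0) and for fibroblasts (led by Col1a1, with Dcn and Pdgfra at 0) were 0.453 to 14.3 FPKM in all libraries. The part of these cells in the difference of Cnr2 or Faah was not tested.

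**Figure D4:**
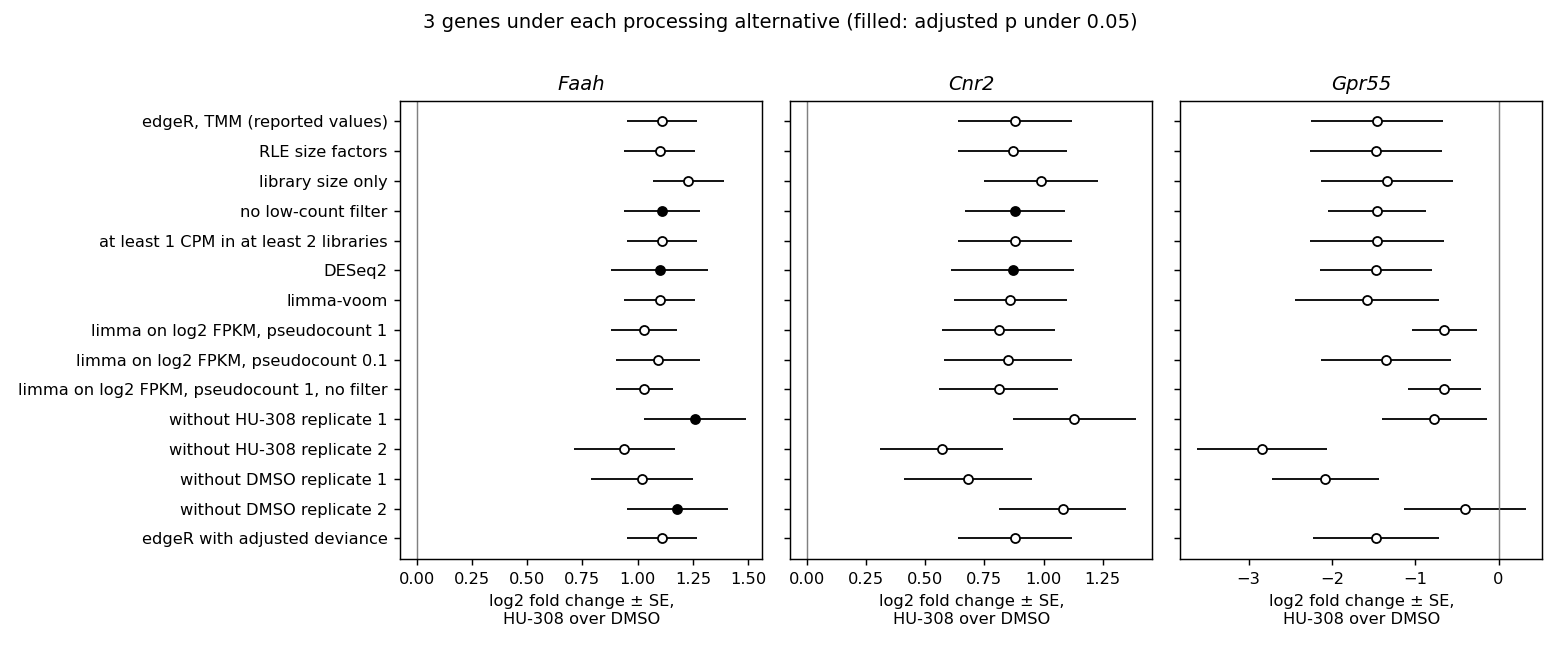
Log2 fold change ± SE of HU-308 over DMSO for Faah, Cnr2 and Gpr55 under each way of processing that treats libraries as unpaired, filled where the adjusted p is under 0.05. Faah stays between 0.94 and 1.26 and Cnr2 between 0.57 and 1.13, while Gpr55 runs from −2.84 to −0.40.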

How the data were processed

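RNA of 2 HU-308 and 2 DMSO libraries was analysed from 1 deposited table. Per the labels' protocols, TRIzol was used for total RNA and a SMARTER mRNA-seq kit for the libraries. The submitters' processing notes name Bowtie2 2.3.4.3, RSEM 1.3.1, DESeq2 1.4.5 and GRCm38 without their roles; annotation release and strand are not given in the sources used here. Per the file headers, the table holds the authors' read counts per gene and library and the authors' FPKM per library. The authors' mean scaled counts per group (signal), their log2 fold change of HU-308 over DMSO, in columns named after Cnr2, and their p-values were deposited beside them. The deposited lengths of the 10 genes equal the union of their exons in GENCODE M21.

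Counts were tested in R 4.3.3 with edgeR 4.0.16 (filterByExpr, minimum count 10 and total 15, TMM, quasi-likelihood F test, unpaired, 2 residual degrees of freedom), with Benjamini-Hochberg adjustment at 0.05. The SE is the absolute log2 fold change over the square root of F. The common coefficient of variation was 19.8%. The 2 libraries of each group differed by more than counting noise, with a chi-square over its degrees of freedom of 18.3 for HU-308 and 26.8 for DMSO. The step was tested on simulated counts with known changes. These were drawn independently for each library, with a spread set by expression level. Spread particular to a gene and likeness of same-numbered libraries were not simulated. Alternatives used DESeq2 1.42.0, limma 3.58.1 with voom or on log2(FPKM + 1) and log2(FPKM + 0.1), other size factors and filters, a replicate block, and each library left out; the adjusted-deviance form of edgeR and coding transcript lengths were added after the data were seen. Promoters are the RefSeq windows of GRCm38.p6, which hold 9 of the 10 genes, not Abhd12, reduced to the 250 bases before the start and ended at the first annotated exon base. This left no bases of Mgll, so 8 genes were searched for motifs. The members and gene lists were chosen with earlier results of these data known. Named genes are the 10, genes of the wider lists past an adjusted p of 0.05 in any of edgeR, DESeq2 or the authors' table, the 2 of highest FPKM per list, the highest marker of each list and markers at 0. Genes named outside this rule are Abhd4, Alox12, Dagla, Trpv1, Ptgs2, Ptges, Adgre1, Ms4a1 and Gata3, chosen after their values were seen. Lipe and Naaa had the same mean of 2.08 FPKM over the 4 libraries, and both were named. Figures were drawn with Python 3.11.15 and matplotlib 3.10.9.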

Additional observations from a re-analysis of the deposited data

How the results depend on the processing

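The count of members past the threshold, 0 in the reported fit, was 2 without the low-count filter, 2 with DESeq2 and 0 to 1 with a library left out. Faah passed with a log2 fold change of 1.11 without the filter (adjusted p = 0.00444) and 1.10 with DESeq2, and with libraries left out it ranged from 0.94 to 1.26. Cnr2 passed at 0.88 without the filter (adjusted p = 0.0497) and 0.87 with DESeq2, and ranged from 0.57 to 1.13. All genes called, 45 in the reported fit, numbered 20 with library size only (8 higher and 12 lower, against 12 and 33, with a shift of 0.118 in the median log2 fold change), 561 without the filter, 28 at 1 CPM in 2 libraries, 732 with DESeq2, 0 with each limma fit on FPKM, and 37 to 337 with a library left out. Of the wider lists DESeq2 called 1. Mgll reversed to 0.09 with library size only. With a library left out, log2 fold changes ranged from −0.08 to 0.01 for Mgll, −0.12 to 0.18 for Abhd12, −0.08 to 0.49 for Abhd6, −0.16 to 0.59 for Daglb, −0.19 to 0.55 for Gpr18 and −0.17 to 0.38 for Napepld. The cause of these changes was not tested. Libraries share replicate numbers across groups, but no source says that a number marks a pair. With a replicate block, 4839 genes, 17 of the wider genes and 3 members passed, Faah at 1.10, Cnr2 at 0.86 and Gpr55 at −1.51; deviations of same-numbered libraries correlated at 0.574 across genes, which are not independent. Gpr55 rests on 13 to 165 reads, and Cnr1 is below what this depth can compare.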
